A study of Mus musculus with 4 samples.

Results

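Retinoic acid synthesis, binding and breakdown were followed through 10 genes, Aldh1a1, Aldh1a2, Aldh1a3, Rdh10, Dhrs3, Cyp26a1, Cyp26b1, Cyp26c1, Crabp1 and Crabp2. They were taken by symbol from the 32285 genes of the count matrices, and all 10 were found in each of the 4 libraries. The data were single-cell transcriptomes of sorted cells from the otic vesicle, its cochleovestibular ganglion and the tissue next to them in Swiss-Webster mouse embryos at E10.5, with 34 to 36 somites. The 2 conditional knockout (cKO) libraries came from embryos with Pax2-Cre, 1 Rosa26-GFP reporter allele and both alleles of Tbx2 and of Tbx3 floxed. The 2 control libraries came from embryos with the same Pax2-Cre and reporter and no floxed T-box allele named. Pax2-Cre recombines in the otic lineage and in other Pax2-expressing cells, so the sort for GFP-positive, DAPI-negative cells kept that lineage in both genotypes. On mm10, Aldh1a2 (ENSMUSG00000013584) lies on chromosome 9 at 71215789 to 71296243, Crabp1 (ENSMUSG00000032291) on chromosome 9 at 54764748 to 54773110 and Crabp2 (ENSMUSG00000004885) on chromosome 3 at 87948666 to 87953376. Rdh10 (ENSMUSG00000025921) lies on chromosome 1 at 16105774 to 16133734. The labels name 2 cKO and 3 control embryos, pooled, and do not say how they were divided among libraries.

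Retinoic acid is made from vitamin A in successive oxidations. Rdh10 makes retinal from retinol, Dhrs3 turns retinal back into retinol, and the retinaldehyde dehydrogenases Aldh1a1, Aldh1a2 and Aldh1a3 make retinoic acid from retinal. The cytochromes Cyp26a1, Cyp26b1 and Cyp26c1 break retinoic acid down, so cells that hold them act as sinks, while Crabp1 and Crabp2 bind it in the cytoplasm, Crabp2 being known to pass it on to nuclear receptors. In the ear, retinoic acid is known for its part in setting the anterior to posterior axis of the otocyst.

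Cyp26a1 is a classic target of retinoic acid. In these data it and its neighbour Cyp26c1 were both called lower in otic cells of the cKO, so their promoters are shown. The call for Cyp26a1 did not hold under every alternative, and a part of retinoic acid in either change was not tested. Cyp26c1 ends 4399 bases before Cyp26a1 starts on chromosome 19. The stretches are RefSeq promoters, 250 bases before to 50 after the start, on the plus strand of GRCm38.p6: chr19:37697558-37697857 for Cyp26a1 and chr19:37685430-37685729 for Cyp26c1. Capitals mark a DR5 retinoic acid response element.
Cyp26a1: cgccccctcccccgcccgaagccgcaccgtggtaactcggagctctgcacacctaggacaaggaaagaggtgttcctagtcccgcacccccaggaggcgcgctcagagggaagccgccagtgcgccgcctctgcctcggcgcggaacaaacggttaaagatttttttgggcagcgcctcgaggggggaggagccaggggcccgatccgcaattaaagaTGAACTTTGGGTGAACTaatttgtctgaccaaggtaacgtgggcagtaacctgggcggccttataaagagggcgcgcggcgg
Cyp26c1: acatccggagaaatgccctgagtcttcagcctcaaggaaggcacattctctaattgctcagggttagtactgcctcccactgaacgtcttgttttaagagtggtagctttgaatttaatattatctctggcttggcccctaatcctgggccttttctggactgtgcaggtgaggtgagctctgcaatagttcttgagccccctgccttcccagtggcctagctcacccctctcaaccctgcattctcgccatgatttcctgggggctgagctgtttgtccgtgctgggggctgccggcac
A DR5 was searched on both strands as 2 half-sites in the same direction, each AGGTCA or else GGGTCA or else AGTTCA or else GGTTCA, with 5 bases between them. The Cyp26a1 element lies 16 to 32 bases before the start and reads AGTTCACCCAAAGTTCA on the strand opposite to the gene. The motif occurred in 32 of 32851 mouse promoters (0.0974%), and Cyp26a1 was the only one of the 7 member genes with a promoter in the table that held it. A DR2, the same half-sites with a shorter spacer, was in 0.268% of promoters and in none of the 10 promoters of those 7 genes. The T-box sequence TCACACCT, searched on both strands, was in 1.28% of promoters and in that of Aldh1a1. A match describes letters in a window and does not show a site in use.

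The libraries held 106769747 and 124986694 UMIs (cKO 1 and cKO 2) and 128205192 and 111724972 UMIs (control 1 and control 2), and 14399 cells were kept. Levels are in CPM, the UMIs of a gene scaled to the UMIs summed over the cells of a class in 1 library. The libraries shared between 2 and 8 cell barcodes in pairs. Median mitochondrial shares of kept cells were 1.31% and 1.38% in the cKO libraries, against 2.41% and 2.96% in the control libraries, and the part of this in the results was not tested. Cell classes were named by resemblance to marker lists, with the 10 genes left out of clustering. As a check of the labels, Tbx3 stood in otic cells at 22.2 and 17.8 CPM in cKO and at 63.1 and 60.7 CPM in control, and Tbx2 at 68.9 and 67.5 CPM in cKO and at 92.7 and 102 CPM in control. By edgeR's quasi-likelihood test Tbx3 fell (log2 -1.47, SE 0.11, adjusted p = 6.43e-05), and Tbx2 fell less (log2 -0.35, SE 0.07, adjusted p = 0.00553). Which exons are lost is not stated, so counted 3′ ends may lie outside the deletion.

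Otic epithelium-like cells were split by genotype. Clusters 1, 2 and 19 held nearly all of the cKO cells, and clusters 3, 4, 5, 11, 12 and 24 nearly all of the control cells, so values of the otic class set these clusters against each other. There were 1163 and 2052 otic cells in cKO and 2162 and 1837 in control.

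In control otic cells the synthesis genes were spread unevenly over the clusters. Aldh1a2, the main retinoic acid synthase of the early embryo, stood in cluster 12 at 44.8 and 56.3 CPM in control 1 and control 2, and in cluster 5 at 18.5 and 25.0 CPM. In the remaining control otic clusters it did not pass 0.520 CPM. Cluster 12 was led by Aldh1a2, Oc90 and Pthlh, and cluster 5 by genes that include Otx1 and Oc90. Of the otic Aldh1a2 UMIs cluster 12 held 55.3% and 55.6%, and cluster 5 held 44.1% and 43.8%. Cluster 12 was 14.7% and 16% of control otic cells.

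Aldh1a3 was highest in other clusters. It stood at 39.1 and 49.8 CPM in cluster 4, at 27.6 and 40.6 CPM in cluster 3 and at 21.2 and 35.5 CPM in cluster 11. In cluster 12, where Aldh1a2 was highest, it stood at 9.53 and 6.85 CPM. Clusters 3 and 4 were led by genes such as Otol1, Gbx2 and Filip1, and of the otic Aldh1a3 UMIs cluster 3 held 27.2% and 30.5% and cluster 4 held 43.6% and 36.5%.

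Aldh1a1 was highest in cluster 24, at 80.6 and 46.6 CPM, against 1.49 to 11.7 CPM in the remaining control otic clusters. Cluster 24 held 22.3% and 22.1% of the otic Aldh1a1 UMIs, while the larger clusters 3 (26.9% and 27.6%) and 4 (30.9% and 26%) held more, as they did for Aldh1a3. Rdh10, the retinol dehydrogenase that feeds all 3 synthases, stood in the same cluster at 371 and 414 CPM. In clusters 3 and 4 it stood at 26.5 to 37.2 CPM and in clusters 5, 11 and 12 at 3.79 to 5.19 CPM. Cluster 24 was 3.47% and 5.44% of the control otic cells but held 34.2% and 53.1% of their Rdh10 UMIs. It carried Dlx5 at 309 and 316 CPM, Msx2 at 196 and 212 CPM and Gbx2 at 111 and 138 CPM. Dlx5 and Gbx2 are known as genes of the dorsal otocyst. Hmx2 and Hmx3, also on the list of dorsal genes, went the other way. They were not among the markers that supported the otic name of cluster 24, unlike in the remaining control otic clusters. Control otic cells with an Aldh1a1 UMI carried Hmx2 at 63.2 and 61.9 CPM, beside 93.9 and 98.4 CPM without. Dhrs3 was also highest in cluster 24, at 4.16 and 10.7 CPM, and Aldh1a2 was at or near 0 there.

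**Figure D1:**
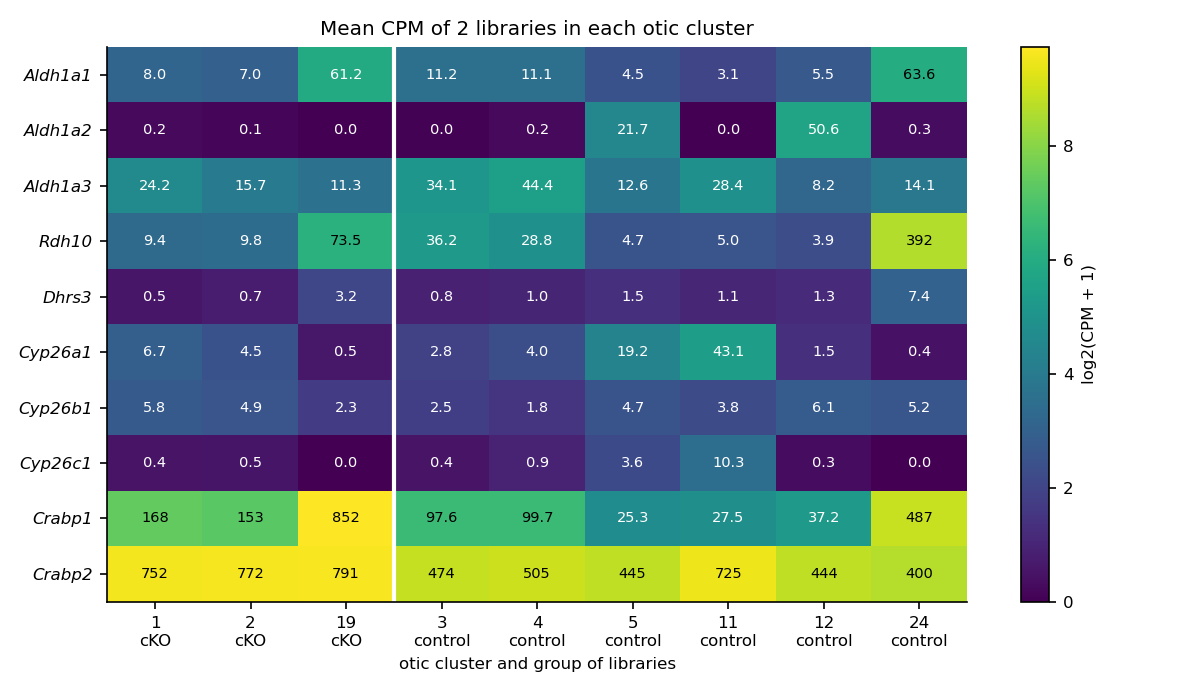
Mean CPM of the 10 genes in each otic cluster (columns, cKO clusters left of control clusters; 2 libraries each), coloured by log2(CPM + 1). Aldh1a2 is seen in control clusters 5 and 12, Cyp26a1 in 5 and 11, and Rdh10 with Aldh1a1 in 24 and, among cKO clusters, in 19.

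The breakdown genes Cyp26a1 and Cyp26c1 shared a territory. Cyp26a1 stood at 46.7 and 39.5 CPM in cluster 11, led by Rorb, Gsc, Otx1 and Otx2, and at 18.6 and 19.8 CPM in cluster 5. In the remaining control otic clusters it stood at 0 to 4.52 CPM. Cyp26c1 stood at 9.87 and 10.8 CPM in cluster 11 and at 3.15 and 4.03 CPM in cluster 5, and did not pass 1.32 CPM in the rest. Cyp26b1 had no such peak in the otic clusters of control, with 1.67 to 6.27 CPM in every cluster.

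Few cells had both Aldh1a2 and Cyp26a1, also in the cluster that held both genes. Of the 152 and 150 control otic cells with an Aldh1a2 UMI, 3 and 3 also had a Cyp26a1 UMI, which is 1.97% (95% Wilson interval 0.673 to 5.64%) and 2.00% (0.682 to 5.71%). Among the control otic cells without Aldh1a2 the share was 16.3% (14.8 to 18%) and 16.1% (14.4 to 17.9%). After thinning each cell to 10000 UMIs, 0 of 100 and 0 of 105 Aldh1a2 cells had Cyp26a1, which allows up to 3.00% and 2.86%, beside 8.67% and 9.83% of the cells without Aldh1a2. Inside cluster 5, 1 of 62 and 3 of 69 cells with Aldh1a2 had Cyp26a1 (1.61%, interval 0.285 to 8.59%, and 4.35%, interval 1.49 to 12.0%). Its cells without Aldh1a2 had Cyp26a1 in 30.1% (25.7 to 35.0%) and 30.4% (25.3 to 36%). These intervals cover counting error only.

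Cyp26a1 and Cyp26c1 were found in the same cells. Of the control otic cells with Cyp26a1, 32.0% and 33.6% also had a Cyp26c1 UMI (intervals 27.2 to 37.2% and 28.2 to 39.4%), beside 1.75% and 1.47% of those without. Thinned to 10000 UMIs, the shares were 9.14% and 11%, beside 1.44% and 1.99%. In cKO otic cells 13 of 85 and 16 of 67 cells with Cyp26a1 had Cyp26c1 (15.3% and 23.9%), against 106 of 331 and 92 of 274 in control. Thinned, the cKO shares were 8.70% and 10.8%, close to those of control, on 4 cells with both genes in each cKO library.

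**Figure D2:**
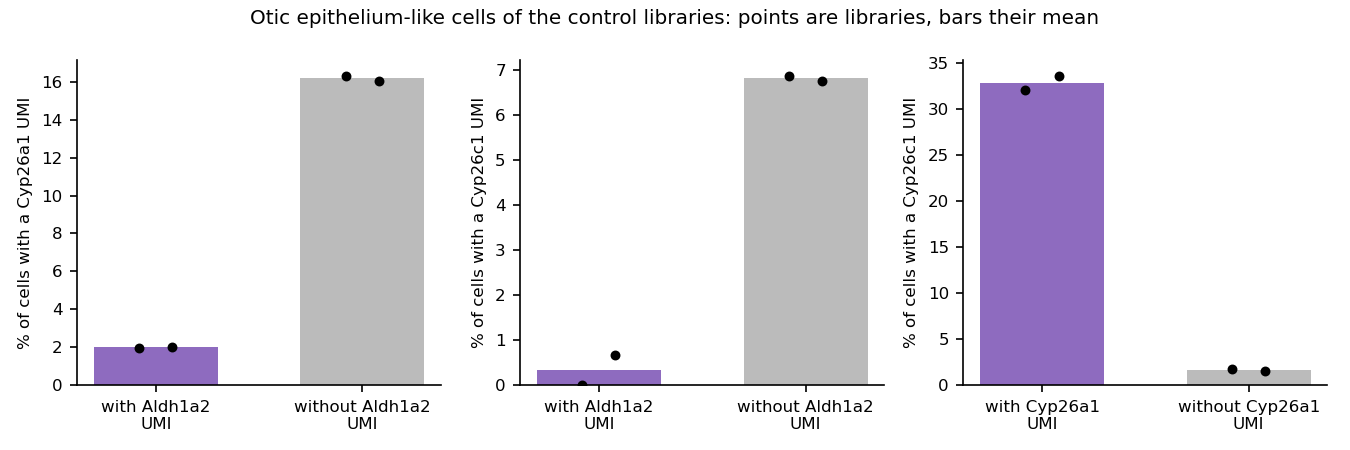
Percent of control otic epithelium-like cells with a UMI of the second gene, among cells with and without a UMI of the first; points are the 2 control libraries and bars their mean, without thinning. Cyp26a1 was found in about 2.00% of cells with Aldh1a2 and in 16.1% or more of cells without it, and Cyp26c1 in 32.0% and 33.6% of cells with Cyp26a1.

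Genes of the otic territories, which the split by a UMI of Aldh1a2 or Cyp26a1 did not use, stood at different levels in these cells. Hmx2 was among the markers of the otic class, and Hmx2, Otx1 and Otx2 were not kept out of the clustering. Control otic cells with an Aldh1a2 UMI carried Hmx2, a dorsal and lateral otic homeobox gene, at 282 and 258 CPM, and those with a Cyp26a1 UMI at 39.1 and 39.5 CPM. Otx1 was the reverse, with 8.41 and 11.9 CPM in Aldh1a2 cells and 125 and 121 CPM in Cyp26a1 cells. Otx2, a ventral otic gene, stood at 0.701 and 5.18 CPM in Aldh1a2 cells and at 75.7 and 101 CPM in Cyp26a1 cells. Tbx3 itself was high in Aldh1a2 cells, at 196 and 160 CPM, beside 54.7 and 53.5 CPM in control otic cells without Aldh1a2. In Cyp26a1 cells it stood at 52.8 and 56.7 CPM, beside 65.1 and 61.4 CPM without. Tbx2 ran differently, at 48.8 and 55.2 CPM in Aldh1a2 cells and 95.5 and 106 CPM in the others. These values describe cells of 2 libraries and carry no test.

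Rdh10 and Aldh1a1, successive steps of synthesis, were found together. Thinned to 10000 UMIs, 42.4% and 48.4% of control otic cells with Aldh1a1 had Rdh10, beside 11.1% and 11.1% of those without. In cKO the shares were 26.9% and 22.8%, beside 10.2% and 11.3%. Counted over all 3 synthases and all 3 Cyp26 genes, thinned otic cells had a synthase UMI in 17.6% and 19.5% of cKO cells, against 23.1% and 26.5% of control cells. A Cyp26 UMI was found in 7.55% and 6.16% of cKO cells, against 12.9% and 13.7% of control cells. Both kinds were found together in 0.728% and 0.859% of cKO cells, against 1.23% and 1.52% of control cells, and in 4.21% and 3.56% against 6.85% and 6.10% without thinning. Leukocyte-like cells had a synthase UMI in 13.2% and 1.96% of cKO and 6.25% and 2.50% of control cells at the same thinning, all of them Aldh1a3, and no Cyp26 UMI.

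In cKO otic cells Aldh1a2 was nearly absent and Cyp26a1, Cyp26c1 and Rdh10 were lower, whereas both binding proteins and Cyp26b1 were higher. Fewer cells of a type and less RNA per cell cannot be told apart in these sums. All 10 genes passed the filter on low counts, and 7 were called at an adjusted p of 0.05, 3 higher and 4 lower. Among all genes tested in otic cells 40.2% were called, 20.9% higher and 19.3% lower in cKO, so the count of 7 is to be read against a high background. The median log2 change of the 10 was -0.50, beside -0.02 over all genes tested. An exact permutation test of 2 libraries against 2 cannot give a p below 0.333, and all p-values here measure the spread between libraries, which may be technical.

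Aldh1a2 had 8 and 9 UMIs in the otic cells of cKO (0.183 and 0.125 CPM), against 664 and 694 in those of control (9.22 and 12.2 CPM). The groups were far apart, with a log2 change of -5.99 (SE 0.25, adjusted p = 5.67e-06, edgeR quasi-likelihood test). No cKO otic cluster passed 0.271 CPM. Cells with an Aldh1a2 UMI numbered 6 of 1163 and 8 of 2052 in cKO.

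Aldh1a3 and Aldh1a1 were not called in otic cells. Aldh1a3 stood at 21.1 and 18.6 CPM in cKO and 24.6 and 30.2 CPM in control, without overlap (log2 -0.30, SE 0.11, adjusted p = 0.053, edgeR). Aldh1a1 stood at 9.11 and 11.6 CPM in cKO and 9.66 and 9.66 CPM in control (log2 0.27, SE 0.12, adjusted p = 0.0962, edgeR), and the groups overlapped. In cKO it was highest in cluster 19, with 68.2 and 54.2 CPM, beside 5.79 to 8.89 CPM in clusters 1 and 2. Cluster 19 held 31.9% and 28.4% of the cKO otic Aldh1a1 UMIs, cluster 1 held 39.2% and 39.8% and cluster 2 held 28.4% and 29.1%. Cluster 19 carried Dlx5 at 236 and 249 CPM and Msx2 at 96.1 and 85.5 CPM. Hmx3 was among the markers that supported its otic name, while Hmx2 was not. Cluster 19 was 4.73% and 7.31% of the cKO otic cells.

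Rdh10 stood at 12.2 and 13.8 CPM in cKO otic cells and at 29.0 and 35.8 CPM in control (log2 -1.14, SE 0.10, adjusted p = 0.000194, edgeR). The share of cells with a Rdh10 UMI, thinned, differed less, with 11.4% and 12.2% in cKO and 13.3% and 13.7% in control. The clusters that carried Dlx5, Msx2 and Aldh1a1 stood at 72.5 and 74.5 CPM of Rdh10 in cKO (cluster 19) and at 371 and 414 CPM in control (cluster 24). The large cKO clusters 1 and 2 stood at 8.68 to 10.4 CPM, below control clusters 3 and 4 and above control clusters 5, 11 and 12. Dhrs3, which runs the reverse step, was near 1 CPM, with 0.756 and 0.736 CPM in cKO and 1.01 and 1.75 CPM in control (log2 -0.71, SE 0.30, adjusted p = 0.0894, edgeR).

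**Figure D3:**
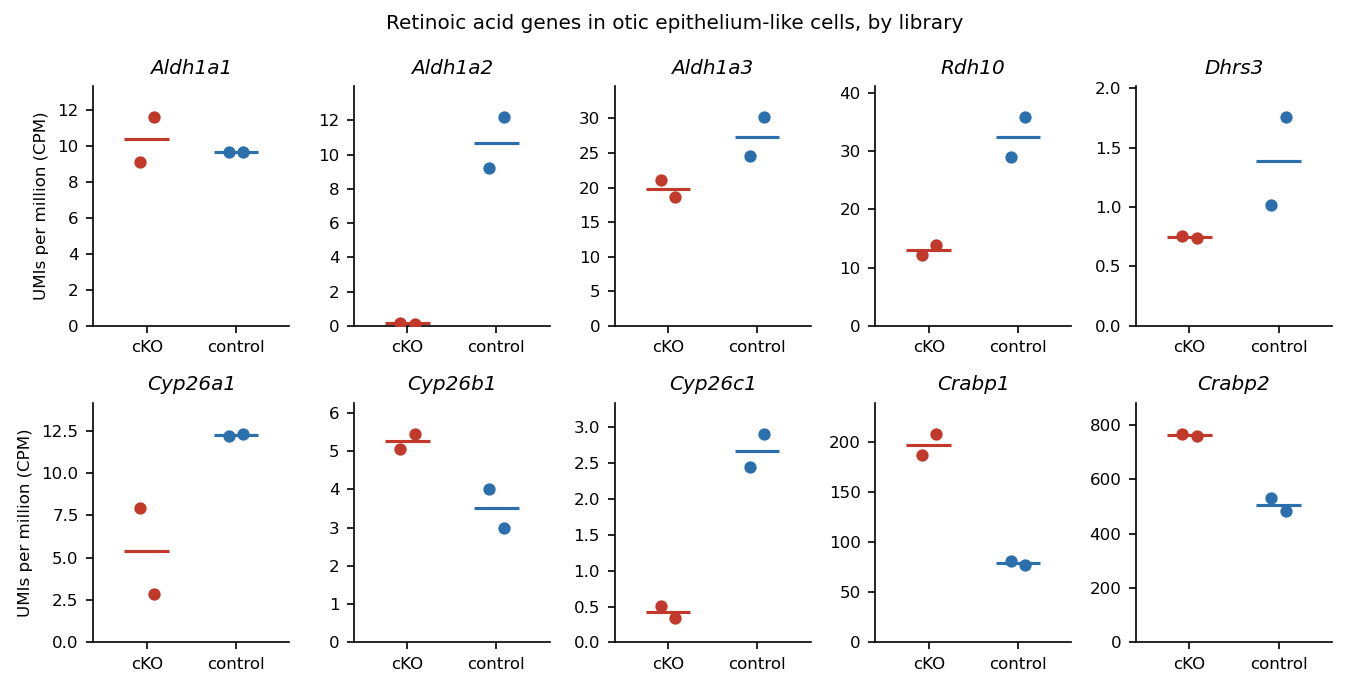
CPM of the 10 genes in otic epithelium-like cells (1 point per library, cKO left of control; lines are the mean of 2 libraries; each axis starts at 0). Aldh1a2 stands at 0.183 and 0.125 CPM in cKO and at 9.22 and 12.2 CPM in control, and the groups overlap for Aldh1a1.

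Of the breakdown genes, Cyp26c1 stood at 0.504 and 0.347 CPM in cKO and 2.45 and 2.91 CPM in control (log2 -2.52, SE 0.25, adjusted p = 0.000261, edgeR). Cyp26a1 stood at 7.95 and 2.83 CPM in cKO and 12.2 and 12.3 CPM in control (log2 -1.07, SE 0.36, adjusted p = 0.0407, edgeR). The cKO libraries were far apart in Cyp26a1, and its call was lost with DESeq2 (adjusted p = 0.295), without control 1 (0.0696) and without control 2 (0.0664). Inside cKO it was spread over clusters 1 (9.99 and 3.40 CPM) and 2 (6.35 and 2.58 CPM), and near 0 in cluster 19. The few cKO cells with Cyp26a1 carried Otx1 at 7.48 and 8.42 CPM, against 125 and 121 CPM in control cells with Cyp26a1, and Six2 at 50.3 and 40.2 CPM, against 73.2 and 102 CPM. Cyp26b1 stood at 5.06 and 5.45 CPM in cKO and 4.01 and 3.00 CPM in control (log2 0.74, SE 0.16, adjusted p = 0.00831, edgeR). That call was lost with the stricter cell filter (adjusted p = 0.0848) and with finer clustering (0.846).

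Crabp1 rose in otic cells, with 187 and 208 CPM in cKO and 80.9 and 77.5 CPM in control (log2 1.49, SE 0.08, adjusted p = 1.38e-05, edgeR). Crabp2 rose as well, with 767 and 758 CPM in cKO and 529 and 482 CPM in control (log2 0.76, SE 0.08, adjusted p = 0.000305, edgeR). A Crabp1 UMI was found, thinned, in 60.8% and 63.0% of cKO otic cells and in 35.0% and 35.3% of control otic cells. Leukocyte-like cells gave a level of free RNA, with Crabp1 in 9.43% and 9.80% of cKO and 10.4% and 7.50% of control cells at the same thinning. Crabp1 followed the territories: in control it stood at 531 and 443 CPM in cluster 24 and at 23.5 to 43.0 CPM in clusters 5, 11 and 12. In cKO it stood at 819 and 885 CPM in cluster 19 and at 146 to 177 CPM in clusters 1 and 2.

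Outside the otic class the synthesis genes other than Aldh1a3 and Rdh10 were scarce. Otic cells held 96.8% and 93.3% of all Aldh1a1 UMIs in cKO and 98.7% and 97.7% in control. They held 99.0% and 97.9% of the Aldh1a2 UMIs of control. Ectoderm-like cells stood at 34.5 and 23.4 CPM of Rdh10 in cKO and at 26.3 and 14.7 CPM in control. Dhrs3 was highest in leukocyte-like cells, at 38.5 and 28.5 CPM in cKO and 39.6 and 43.1 CPM in control.

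Cyp26a1 and Cyp26b1 were also high outside the ear, in different classes. Mesenchyme-like cells had the highest Cyp26a1, at 79.3 and 84.3 CPM in cKO and 129 and 106 CPM in control. They held 56.6% and 42.4% of all Cyp26a1 UMIs in cKO and 32.5% and 37.6% in control. Neural tube progenitor-like cells were high in Cyp26b1, at 61.1 and 40.1 CPM in cKO and 98.2 and 73.3 CPM in control. Epibranchial neuron-like cells of cluster 14, which express Neurog2 and Phox2a, stood at 22.8 and 19.5 CPM of Cyp26b1 in cKO and 27.0 and 32.5 CPM in control, while those of cluster 15, led by Prph and Prox2, stood at 0.914 and 1.39 CPM in cKO and 3.43 and 3.27 CPM in control. Cyp26c1 was almost all otic in control, with 95.1% and 98.8% of its UMIs.

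Neither the mesenchyme nor the neural tube progenitors had a called member. In mesenchyme 5 members passed the filter and 0 were called by edgeR or by DESeq2, where 5.92% of all genes were (3.14% higher, 2.79% lower). Cyp26a1 and Crabp1 had unadjusted p-values under 0.05 there (Cyp26a1 log2 -0.41, SE 0.13, adjusted p = 0.0924, edgeR). In neural tube progenitors 5 passed the filter and 0 were called by either tool, where 1.19% of all genes were (0.558% higher, 0.636% lower). Aldh1a3, Cyp26b1 and Crabp2 had unadjusted p-values under 0.05. Aldh1a3 stood at 25.9 and 13.9 CPM in cKO and 9.48 and 4.11 CPM in control (log2 1.78, SE 0.41, adjusted p = 0.071, edgeR). The log2 change was -0.61 for Cyp26b1 (SE 0.20, adjusted p = 0.184, edgeR) and 0.39 for Crabp2 (SE 0.18, adjusted p = 0.320, edgeR). In surface or pharyngeal ectoderm 7 passed and 1 was called, beside 4.2% of all genes (2.34% higher, 1.86% lower). It was Crabp2, at 491 and 479 CPM in cKO and 389 and 315 CPM in control (log2 0.50, SE 0.11, adjusted p = 0.0144, edgeR), a call lost with the stricter cell filter (adjusted p = 0.0621).

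Summed by class, Crabp1 rose in all 3 neuron classes, and Crabp2 in placodal and epibranchial neurons. In cells resembling placodal sensory neurons, such as those of the cochleovestibular ganglion, 5 members passed the filter. Of these, 3 were called, all higher in cKO, where 37% of all genes were called and 18.2% were higher. The class was not resolved by ganglion. Crabp1 stood at 65.0 and 64.9 CPM in cKO and 13.7 and 22.4 CPM in control (log2 1.95, SE 0.20, adjusted p = 0.000414, edgeR). Leukocyte-like cells stood at 16.8 and 10.8 CPM of Crabp1 in cKO and 9.42 and 11.9 CPM in control, and the part of free RNA in the neuron values was not tested. Crabp2 stood at 316 and 333 CPM in cKO and 102 and 85.2 CPM in control (log2 1.91, SE 0.10, adjusted p = 4.36e-05, edgeR). Aldh1a3 stood at 15.7 and 18.3 CPM in cKO and 11.4 and 8.65 CPM in control (log2 0.88, SE 0.17, adjusted p = 0.00577, edgeR).

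Cluster 9 of these neurons, led by Pou4f1 and Ntrk3 among others, was almost all control, so the shared clusters 6 and 10 were read by themselves. In cluster 6, where 25.6% of all genes were called, Crabp1 stood at 68.1 and 63.2 CPM in cKO and 9.79 and 17.6 CPM in control (log2 2.37, SE 0.19, adjusted p = 1.08e-05, edgeR). In cluster 10, where 13.1% were called, it stood at 62.0 and 70.0 CPM in cKO and 16.8 and 28.9 CPM in control (log2 1.58, SE 0.18, adjusted p = 0.000101, edgeR). Crabp2 rose in both, by 1.66 and 1.29 on the log2 scale. Aldh1a3 was called in cluster 6 (log2 0.89, SE 0.30, adjusted p = 0.0496, edgeR) and not in cluster 10 (log2 0.02, SE 0.36).

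In epibranchial neuron-like cells 5 members passed and 3 were called, all higher, beside 24.3% of all genes called and 11.7% higher. Crabp1 stood at 1341 and 1843 CPM in cKO and 586 and 472 CPM in control (log2 1.69, SE 0.15, adjusted p = 0.000888, edgeR). Cluster 15 stood out in cKO, with 2977 and 3096 CPM, against 705 and 560 CPM in control (log2 2.36, SE 0.10, adjusted p = 7.23e-07, edgeR; 9.5% of all genes called). Cluster 14 stood at 677 and 764 CPM in cKO, against 239 and 250.4 CPM in control (log2 1.65, SE 0.10, adjusted p = 7.96e-07, edgeR; 10.6% called). Crabp2 stood at 237 and 162 CPM in cKO and 98.4 and 70.0 CPM in control (log2 1.35, SE 0.21, adjusted p = 0.00505, edgeR), a call lost without control 2 (adjusted p = 0.0615). Crabp2 was called in cluster 14 (log2 1.23, SE 0.17, adjusted p = 0.000742, edgeR). In cluster 15 it was not called (log2 0.22, SE 0.16, adjusted p = 0.383, edgeR). Cluster 14 held 171 and 216 cells in cKO and 109 and 101 in control. Cluster 15 held 55 and 136 in cKO and 186 and 179 in control. The part of this mix in the class values was not tested. Over the class, Aldh1a3 stood at 13.5 and 7.34 CPM in cKO and 5.71 and 2.24 CPM in control (log2 1.42, SE 0.42, adjusted p = 0.0399, edgeR). This call was lost without either control library and with doublets kept. Aldh1a3 was not called in cluster 14 (log2 1.10, SE 0.47, adjusted p = 0.148, edgeR) or in cluster 15 (log2 1.47, SE 0.42, adjusted p = 0.0521, edgeR).

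Neural tube neuron-like cells had the highest Crabp1 of all classes. They stood at 21103 and 23544 CPM in cKO and at 14533 and 10949 CPM in control (log2 0.86, SE 0.13, adjusted p = 0.0286, edgeR). They gave 62.0% and 50.4% of all Crabp1 UMIs in cKO and 64.6% and 77.3% in control. Here 4 members passed and 2 were called, both higher, beside 1.34% of all genes called, 0.524% higher and 0.819% lower. Crabp1 was called in cluster 18 (log2 0.72, SE 0.06, adjusted p = 6.12e-07, edgeR). In cluster 17 it was not called (log2 0.75, SE 0.16, adjusted p = 0.126, edgeR). Cluster 18 held 85 and 66 cells in cKO and 51 and 79 in control. Cluster 17 held 93 and 39 in cKO and 85 and 191 in control. The part of this mix in the class value was not tested. Crabp2 was not called in the class, at 1519 and 1579 CPM in cKO and 1422 and 1247 CPM in control (log2 0.26, SE 0.09, adjusted p = 0.165, edgeR). The second call was Aldh1a3, at 11.3 and 8.36 CPM in cKO and 1.59 and 0.888 CPM in control (log2 3.14, SE 0.46, adjusted p = 0.0277, edgeR). It rests on 40 and 16 UMIs in cKO and 4 and 4 in control, and was lost without cKO 1 or without control 2. In cluster 18, led by En1 and Otp, Aldh1a3 stood at 20.9 and 10.3 CPM in cKO and 1.12 and 0.750 CPM in control (log2 4.07, SE 0.70, adjusted p = 0.00138, edgeR; 5.35% of all genes called). In cluster 17, with 8 and 4 UMIs in cKO and 3 and 3 in control, it did not pass the filter. Leukocyte-like cells stood at 31.4 and 7.86 CPM of Aldh1a3 in cKO and 9.89 and 15.6 CPM in control. The control values lay above the 1.59 and 0.888 CPM of neural tube neurons, so leukocyte-like cells give no level of free RNA for this gene. The part of free RNA in the Aldh1a3 values was not tested either.

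**Figure D4:**
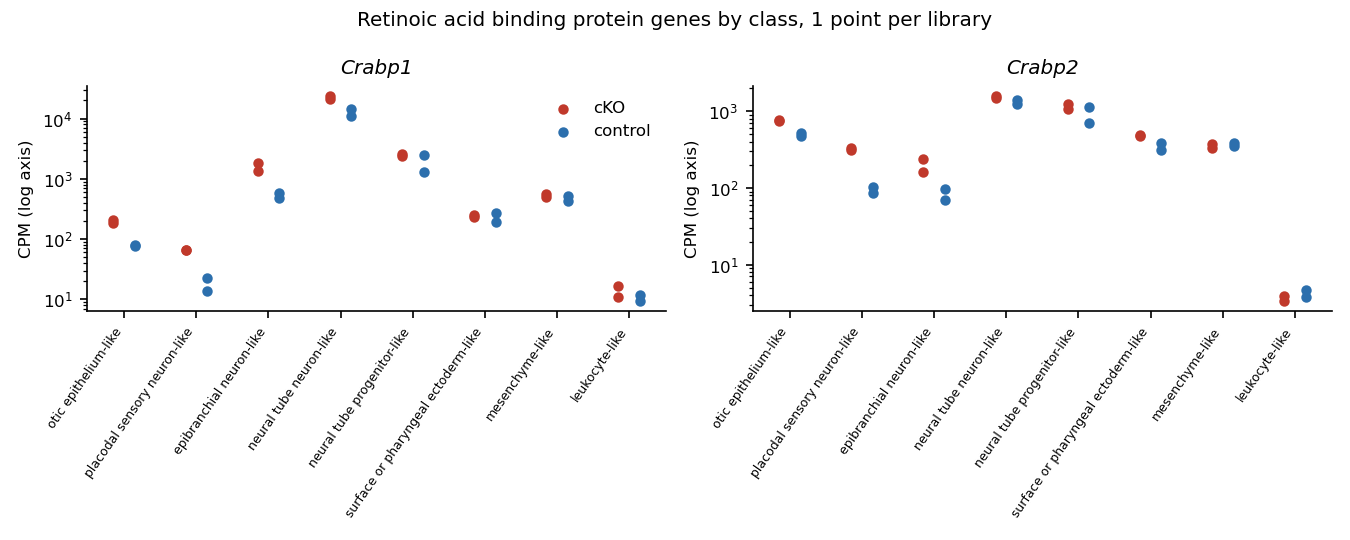
CPM of Crabp1 and Crabp2 in each class on a log axis, 1 point per library, cKO left of control. Crabp1 is highest in neural tube neuron-like cells, at 21103 and 23544 CPM in cKO and 14533 and 10949 CPM in control.

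The genotype effect differed between otic cells and placodal neurons for 4 of the 10 genes, beside 16.1% of all genes tested for that difference. The otic change minus the neuron change was -1.16 for Crabp2 (SE 0.06, adjusted p = 1.01e-06, edgeR interaction with the library as a block) and -1.19 for Aldh1a3 (SE 0.20, adjusted p = 0.00234). It was -1.08 for Rdh10 (SE 0.25, adjusted p = 0.0139) and 1.33 for Cyp26b1 (SE 0.30, adjusted p = 0.0108). For Crabp1 it was -0.47 (adjusted p = 0.106, edgeR interaction), which did not pass. Aldh1a2 and Cyp26c1 were at or near 0 in neurons, so no difference could be read for them.

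**Figure D5:**
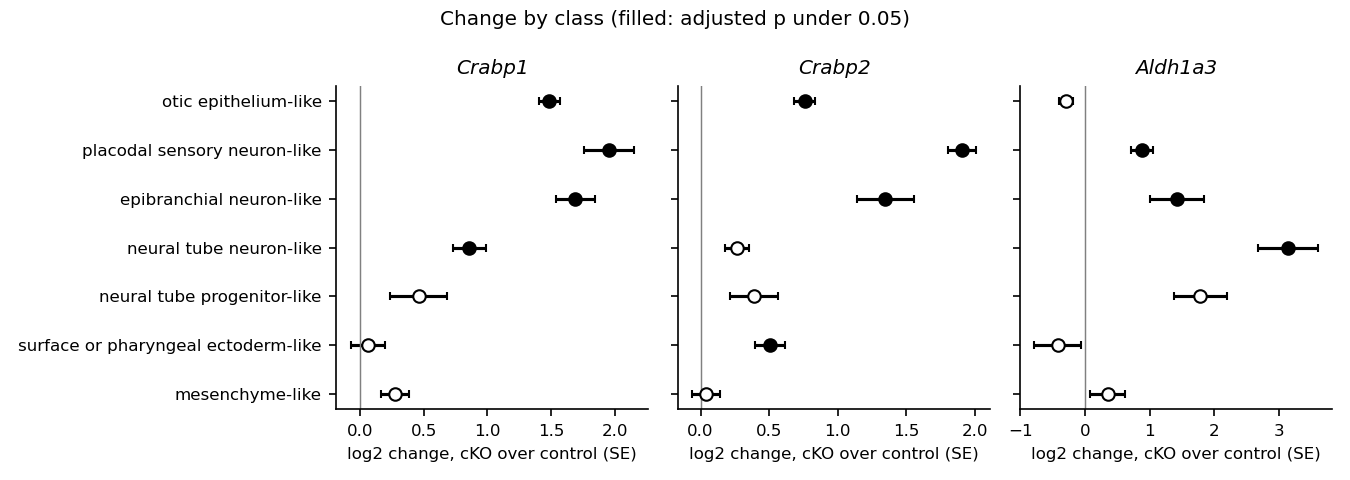
Log2 change of cKO over control with its SE for Crabp1, Crabp2 and Aldh1a3 in each class where the gene passed the filter; filled points passed an adjusted p of 0.05 (edgeR). Crabp1 was called in the otic class and in the 3 neuron classes, with 1.49, 1.95, 1.69 and 0.86.

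Over all kept cells, 5 of the 10 were called, beside 27% of all genes. Aldh1a2 (log2 -5.63), Cyp26c1 (-2.25) and Rdh10 (-0.75) were lower and Crabp1 (1.02) and Crabp2 (0.78) higher, by edgeR with adjusted p-values of 0.00202 to 0.0301. Rdh10 was lost without control 2 (adjusted p = 0.0715), and Crabp1 without control 1 or without control 2 (up to 0.0970). These sums mix the changes within classes with the different numbers of cells of each class.

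Of 38 other genes of the pathway, 29 were tested in otic cells, where 9 rose, 8 fell and 12 were not called, beside 40.2% of all genes called there, 20.9% higher and 19.3% lower. In the list of supply and carriers 7 of 10 genes were tested, 4 were higher, 0 were lower, and the median log2 change was 0.47. Rbp4, the retinol carrier of plasma, stood at 1.10 and 1.19 CPM in cKO and 0.681 and 0.614 CPM in control (log2 0.99, SE 0.24, adjusted p = 0.0133, edgeR). Adh5 changed by 0.50 and Fabp5, a fatty acid binding protein that also binds retinoic acid, by 0.47. In the list of receptors and cofactors all 12 were tested, 1 was higher, 6 were lower, and the median was -0.10, to be read against the same shares. Rarb, a retinoic acid receptor and itself a known target, stood at 0.344 and 0.208 CPM in cKO and 0.834 and 1.6 CPM in control (log2 -2.01, SE 0.41, adjusted p = 0.00626, edgeR). The coactivator Ncoa1 changed by -1.20, Rxra by -0.55 and Rxrg by -0.51.

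Of 18 genes known to respond to retinoic acid in embryos, 12 were tested in otic cells, 4 were higher and 3 lower, with a median of 0.07, beside 20.9% of all genes higher and 19.3% lower. Rarb is one of them. Fgf8, which retinoic acid is known to repress in the embryonic body axis, stood at 9.48 and 6.36 CPM in cKO and 1.71 and 2.16 CPM in control (log2 2.20, SE 0.21, adjusted p = 0.000256, edgeR). Meis1 stood at 5.82 and 6.11 CPM in cKO and 14.9 and 18.5 CPM in control (log2 -1.31, SE 0.11, adjusted p = 0.000139, edgeR). Tbx1, which is needed for otic regional identity, stood at 38.2 and 27.0 CPM in cKO and 85.3 and 92.6 CPM in control (log2 -1.28, SE 0.14, adjusted p = 0.000434, edgeR). Genes were named here by the size of their change, which gave all 3 lower genes and, of the 4 higher ones, only Fgf8. Whether these changes follow retinoic acid was not tested, and no list test was run.

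Over 19 control clusters of all classes, the genes most like each member in log2(CPM + 1) were named as a description. For Aldh1a1 they were Slc30a4 (Pearson r 0.957), Dact2 (0.947) and Cytl1 (0.932), and for Aldh1a2 Neto1 (0.886), Sptssa (0.882) and Sgsm3 (0.836). For Aldh1a3 they were Brip1 (0.896), Clint1 (0.888) and Uaca (0.873). For Cyp26a1 they were Foxc1 (0.811), Capn6 (0.803) and Spin2c (0.8003), for Cyp26b1 Pcdh8 (0.844) and Hoxb3os (0.828), and for Cyp26c1 Vmo1 (0.917), Tnni1 (0.903) and Gdf6 (0.883). For Crabp1 they were Dcc (0.875), Akap7 (0.872) and Mapre3 (0.869). The clusters share 2 libraries and differ in depth.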

How the data were processed

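The authors deposited raw UMI counts per gene and barcode, with no normalization. The software named per the file headers is Cell Ranger 6.0.1; per the submitters' processing notes it is Cell Ranger 3.1.0, with mm10 and Seurat 4.1.0. Cells with at least 1000 genes and at most 10% mitochondrial UMIs were kept, less the top Scrublet scores at 0.8% per 1000 barcodes (124, 148, 154 and 160 cells in cKO 1, cKO 2, control 1 and control 2); Scrublet's own threshold called 5, 0, 3 and 2. They were clustered (scanpy 1.11.5, leidenalg 0.10.2, 2000 variable genes, 30 components, resolution 1) without the 10 genes, 38 related genes, Tbx2 and Tbx3, giving 25 clusters. A cluster took the class whose markers led it; 4 clusters stayed unnamed: 2 at low UMI numbers, 1 led by Pax1 and Nkx2-6, 1 led by roof plate genes, a list added after the clusters were seen. Counts summed per library and class, in the 7 classes with at least 20 cells in every library and over all kept cells, were tested with edgeR 4.0.16 in R 4.3.3 (filterByExpr, TMM, quasi-likelihood test, two-sided, Benjamini-Hochberg at 0.05 over all genes); log2 changes are on that scale, CPM on total UMIs. DESeq2 1.42.0, other factors, filters, clusterings and each library left out were alternatives. The test, on data simulated from the otic sums with 200 of 15339 genes changed by a log2 of 1, found 200 and made 5 false calls. The simulation used a fixed low dispersion and no shift between libraries or clusters. It checks the code and gives no error rate for the real data. Named genes were the members and, per related list, up to 4 called genes with the largest change whose groups did not overlap, and the 3 genes most like a member. Members and lists were chosen with earlier results of these data known. Replicate libraries differed beyond sampling noise (chi-square per degree of freedom 38.0 in cKO and 50.6 in control). Where the counting did not use strand, reads of Aldh1a1 and the antisense C730002L08Rik, and of Aldh1a2 and the pseudogene Gm48124, cannot be told apart. Motifs and promoters came from RefSeq on GRCm38.p6, for 7 of the 10 genes. Some genes that these rules name are not reported here.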

Additional observations from a re-analysis of the deposited data

Results flagged for a closer look

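The genotype effects on 4 genes differed between otic epithelium-like and placodal sensory neuron-like cells by edgeR's interaction test. The difference, otic minus neuron on the log2 scale, was -1.08 for Rdh10, -1.16 for Crabp2, -1.19 for Aldh1a3 and 1.33 for Cyp26b1. In otic cells and in neurons Crabp2 was higher in cKO, by 0.76 and 1.91, while Aldh1a3 changed by -0.30 and 0.88, Rdh10 by -1.14 and -0.08, and Cyp26b1 by 0.74 and -0.57. The calls for Crabp2 and Aldh1a3 passed under each of 10 alternatives. None of these limited the neurons to the shared clusters 6 and 10. There Crabp2 changed by 1.66 and 1.29, and Aldh1a3 by 0.89 and 0.02. The call for Rdh10 was lost without cKO 2 and with doublets kept (adjusted p up to 0.161), and that for Cyp26b1 under these and with finer clustering (up to 0.235).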

How the results depend on the processing

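Of the 25 calls on single genes, 15 held under every alternative, and over all 289 combinations 269 held, 20 missed the threshold and 0 changed sign. The count of members called stayed within 1.5 times in otic cells and placodal neurons. It was 3 to 7 of 10 over all kept cells and 1 to 4 of 5 in epibranchial neurons with a library left out, and 5 in epibranchial neurons with no filter on low counts. In mesenchyme it was 0 to 1 with a library left out, and 1 with no filter and with doublets kept. In neural tube neurons it was 1 to 2 with a library left out and 1 with DESeq2, which gave Aldh1a3 no adjusted p. In neural tube progenitors it was 0 to 3 with a library left out and 4 with no filter, and in ectoderm 1 to 2 with a library left out and 0 with the stricter cell filter. Thinned to 5000 UMIs, 0.230% of cKO and 0.725% of control otic cells had both a synthase and a Cyp26 UMI. The causes were not tested.

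Some changes that were not called reversed their sign on the log2 scale. With a library left out, they ran over all kept cells from -0.32 to 0.60 for Aldh1a1, -0.14 to 0.10 for Aldh1a3, -0.36 to 0.17 for Dhrs3 and -1.10 to 0.29 for Cyp26a1. They ran from -0.21 to 0.76 for Aldh1a3 and -0.039 to 0.14 for Crabp2 in mesenchyme, from -0.35 to 0.59 for Rdh10 in neural tube progenitors and from -0.33 to 0.18 for Rdh10 in placodal neurons. In ectoderm they ran from -0.69 to 0.79 for Cyp26a1, -0.47 to 2.44 for Cyp26b1 and -0.13 to 0.40 for Crabp1, and the difference of effects for Dhrs3 from -1.47 to 0.37. With doublets kept, Aldh1a3 was 0.27 and Cyp26b1 -0.076 in ectoderm, and the differences of effects -1.22 for Cyp26a1 and 0.0071 for Crabp1. The stricter cell filter gave Rdh10 -0.50 in neural tube progenitors, coarser clustering gave Cyp26a1 -0.12 in ectoderm, and finer clustering gave Aldh1a3 0.050 in otic cells.

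The replicate numbers did not pair the libraries: deviations of same-numbered libraries correlated at -0.11 over all kept cells, 0.04 in otic cells and -0.06 in neurons. With the replicate number as a block, 8 members were called in otic cells, 6 over all kept cells and 2 in neural tube progenitors. With the numbers crossed, a setting added after the data were seen, 5 were called over all kept cells. No otic cluster had 20 cells in every library, so a fit on shared otic clusters was not run, nor were fits of pharyngeal endoderm and neural crest, since no cluster took either name; the unnamed cluster led by Pax1 and Nkx2-6 was not fitted. Genes near 1 CPM, such as Dhrs3, Rarb and Cyp26c1, rest on few UMIs.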
